A study of Mus musculus with 7 samples.

Results

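RNA-seq libraries of lin- (lineage-depleted) bone marrow, 7 in all, were split by the share of their reads that fell on *Rn45s*, the 45S precursor of ribosomal RNA. The members of each class were chosen by this measured share, the *Rn45s* count divided by the reads on all genes, with a limit set between 11.8% and 13.6%. The high class held 3 of the 7 libraries (WT replicate 2, KO replicate 3 and KO replicate 4), and the low class held the other 4 (WT replicates 1 and 3, KO replicates 1 and 2). These classes are not groups of the study, whose design compares HRP-2 knockout (KO) with wild type (WT) mice. Each class holds both genotypes, so that genotype was kept as a term in the comparison. *Rn45s* itself was removed before library sizes were taken and was never tested. Levels are given as CPM, a gene's read count scaled to the library's reads on the remaining genes, with TMM factors.

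The cells came from the femur and tibia of mice 6 to 8 weeks old, after red cell lysis and removal of cells with markers of mature lineages. Wild type mice are labelled Hrp2+/+ and knockout mice Hrp2-/-, and the knockout is a systemic tm1b allele, obtained on a C57BL/6N background, that removes HRP-2 from all tissues and not from blood cells alone. No treatment was given to either genotype, and the sources used here do not give the sex of the mice. For each library 500 ng of total RNA was primed at the poly(A) tail, so that reads lie near the 3′ ends of transcripts.

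In every growing cell RNA polymerase I transcribes the ribosomal DNA repeats into one long precursor, and a large set of nucleolar factors cuts, folds and modifies this precursor into the RNAs of both ribosomal subunits. RNA polymerase II supplies the messengers of the ribosomal proteins and of the processing factors, many of which share short promoter motifs. The 45S precursor is nuclear, short-lived and largely without a poly(A) tail. The mature ribosomal RNAs are parts of its sequence. Reads on *Rn45s* can therefore come from the precursor or from mature ribosomal RNA, and counts per gene cannot tell these apart. Blood progenitors divide quickly and make many ribosomes, and their output of ribosomes differs between lineages.

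Each library held between 3097371 and 4845056 reads on genes other than *Rn45s*, and 3 reads, taken as the floor, correspond to 0.619 to 0.969 CPM, which covers counting error only. *Hdgfl2*, the gene of HRP-2, had 228, 156 and 168 reads in WT replicates 1 to 3 and 13, 3, 8 and 2 reads in KO replicates 1 to 4, so the genotype labels held in both classes. The progenitor markers *Kit* (97.7 to 140.0 CPM) and *Cd34* (212.3 to 325.5 CPM) were present in all 7 libraries, and so were genes of mature lineages, the summed late neutrophil granule genes ranging from 10155 to 30587 CPM. KO replicate 3 stood apart in its sex-linked genes: *Xist* had 3 reads there and 848 to 1457 in each of the other 6 libraries, and *Ddx3y* had 559 reads there and at most 4 elsewhere. The count of genes, the counts of the main lists, the correlations across libraries and the comparison of KO with WT differences are therefore also given without that library, and of the 47 genes named by rule that passed the test, 10 still passed without it. No pair of libraries matched within sampling noise. The labels number the samples as biological replicates, and nothing more is said of how the animals were chosen.

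*Rn45s* took 4.94% of reads in KO replicate 1, 9.21% in KO replicate 2, 9.43% in WT replicate 3 and 11.8% in WT replicate 1, the low class. It took 13.6% in KO replicate 3, 18.6% in KO replicate 4 and 20.6% in WT replicate 2, the high class. The 95% exact binomial interval, which covers counting error only, ran from 4.92% to 4.96% in KO replicate 1 and from 20.6% to 20.7% in WT replicate 2. WT replicate 1 and KO replicate 3 are the libraries just outside and just inside the limit. *Rn45s* was the top gene in all 7 libraries, and its share was 4.29 to 18.7 times that of *Actb*, the second gene in each.

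**Figure D1:**
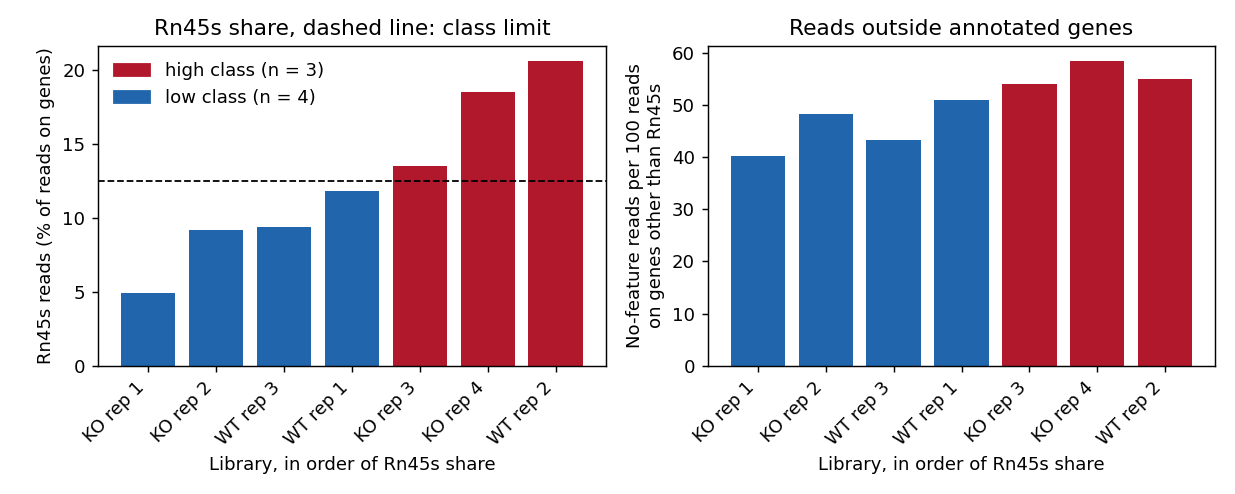
Left, the *Rn45s* share of reads on genes in each of the 7 libraries, in percent, with the class limit as a dashed line. Right, reads outside annotated genes per 100 reads on genes other than *Rn45s*, in the same order: the 3 high libraries (red) lie between 54.0 and 58.4 and the 4 low libraries (blue) between 40.2 and 50.9.

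Reads that the counting assigned to no annotated gene were more frequent in each high library per 100 reads on other genes, but did not pass the test between the classes. Per 100 reads on genes other than *Rn45s* there were 55.1, 54.0 and 58.4 such reads in WT replicate 2, KO replicate 3 and KO replicate 4. In the low class there were 50.9 and 43.4 in WT replicates 1 and 3, and 40.2 and 48.2 in KO replicates 1 and 2. The classes did not overlap, at 55.8 ± 2.29 (SD, n = 3) against 45.7 ± 4.80 (SD, n = 4), with a two-sided exact permutation p = 0.0571 over 35 splits (adjusted p = 0.214 over 5 library measures, smallest possible p = 0.0286). As a percent of all reads counted, with *Rn45s* in the total, the difference was 2.21 percentage points (exact permutation p = 0.143) and the classes overlapped, WT replicate 1 (30.3%) lying above WT replicate 2 (29.8%). Across the 7 libraries the no-feature value followed the *Rn45s* share with Pearson's r = 0.908 (permutation p = 0.00615 over all 5040 orderings, adjusted p = 0.0123) and Spearman's rho = 0.929 (permutation p = 0.00675, adjusted p = 0.0135). Without WT replicate 2 and KO replicate 1, the libraries farthest from the median, r was 0.926, and without KO replicate 3 it was 0.924. Reads on other genes enter the denominators of both values. With the no-feature reads as a percent of all reads counted, the relation did not pass, at r = 0.704 (permutation p = 0.0744, adjusted p = 0.0992) and rho = 0.75 (permutation p = 0.0663, adjusted p = 0.0884), and r was 0.784 without WT replicate 2 and KO replicate 1 and 0.738 without KO replicate 3. These were 2 of 4 relations computed. Reads that overlapped more than 1 gene (3.45 to 3.75 per 100, exact permutation p = 0.857), reads on genes other than *Rn45s* (exact permutation p = 0.8) and the number of genes detected (p = 0.171 by the same exact test) did not pass either. Thinned to the depth of the smallest library, the high class had 13828 ± 119 genes detected (SD, n = 3) and the low class 13533 ± 235 (SD, n = 4), with an exact permutation p = 0.0857. As a percent of all reads counted, reads on more than 1 gene were 1.99% to 2.01% in the high and 2.102% to 2.403% in the low libraries, without overlap (exact permutation p = 0.0571); this total holds the *Rn45s* reads that set the classes.

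The first principal component of log2(CPM + 1) over all genes tested, *Rn45s* left out, ordered the libraries much as *Rn45s* did. Its scores were 29.5 in WT replicate 2, 16.5 in KO replicate 3 and 16.0 in KO replicate 4, against −5.55 in WT replicate 1, −12.2 in KO replicate 2, −17.3 in WT replicate 3 and −26.9 in KO replicate 1. The component held 23.2% of the variance and followed the share with r = 0.953 (permutation p = 0.00119, adjusted p = 0.00476) and rho = 0.929 (permutation p = 0.00675, adjusted p = 0.0135), and r was 0.872 without WT replicate 2 and KO replicate 1 and 0.998 with the component recomputed without KO replicate 3. With 3 and 4 libraries, neither class is large enough for a correlation of its own. WT and KO libraries were mixed along this component.

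**Figure D2:**
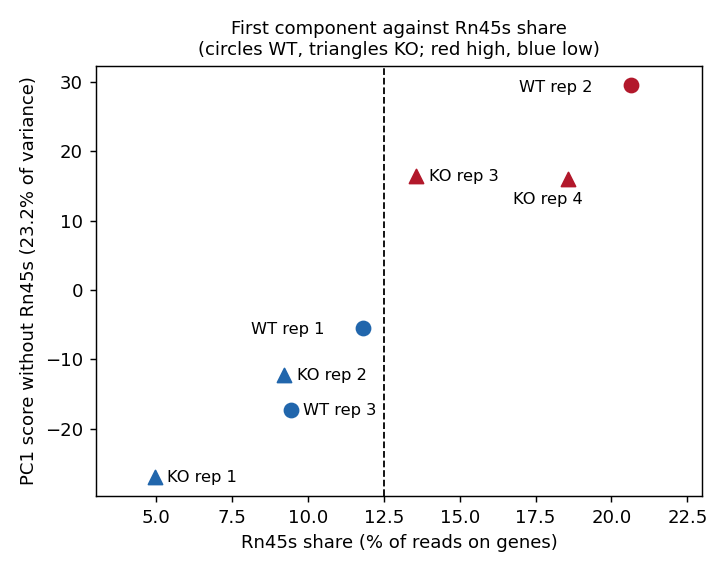
The score of each library on the first principal component of all genes but *Rn45s* (vertical axis, 23.2% of the variance) against its *Rn45s* share in percent (horizontal axis). Circles are WT and triangles KO; the 3 high libraries (red) score 16.0 to 29.5 and the 4 low libraries (blue) −26.9 to −5.55.

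Among 11625 genes tested with edgeR's quasi-likelihood test, 218 passed between the classes with an adjusted p-value below 0.05 (1.88%). In the high class 111 of them were higher (0.955%) and 107 lower (0.92%). At 0.25, the threshold the study used between genotypes, 653 were higher (5.62%) and 703 lower (6.05%), together 11.7%. The changes were mostly below 2-fold: the median size was 0.64 on the log2 scale, and 20 of the 218 exceeded 1. Calls were more frequent at higher levels. The median level of the 218 was 119 CPM, against 30.4 CPM over all genes tested, and 7.66% of genes with a mean of at least 200 CPM were called. The shares of all genes tested that stand beside the gene lists below are not matched for level. In 205 of the 218 the CPM of the classes did not overlap, while over all genes tested 6.69% lay wholly higher and 7.04% wholly lower in the high class. The test that chose the 218 used the same libraries and classes, so their lack of overlap is no further evidence. The count rested on few libraries, with 2 genes left without WT replicate 2, 12 without WT replicate 3, 16 without KO replicate 2, 32 without KO replicate 3, 73 without WT replicate 1, 132 without KO replicate 1 and 554 without KO replicate 4. Each of the 218 that was tested kept its direction in all of these fits. With the no-feature reads as a further term, which run close to the classes, none of the 218 passed the test, 1 other gene did (*Slc3a2*, −1.50, adjusted p = 0.00355), and the 218 again kept their directions. The no-feature reads and the class cannot be told apart in 7 libraries. With *Rn45s* kept in the library size and no TMM factors, the median of all genes moved by −0.17 on the log2 scale and 723 genes passed, 54 higher and 669 lower.

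*Rraga* gave the smallest p-value. It encodes RagA, a small GTPase that brings mTORC1, the kinase complex that drives ribosome production, to the lysosome when amino acids are plentiful. *Rraga* (chromosome 4 of GRCm38, 86575668 to 86577285) had 186.4 and 239.8 CPM in WT replicates 1 and 3 and 273.0 and 258.8 CPM in KO replicates 1 and 2. The high class had 90.7 CPM in WT replicate 2, 116.2 CPM in KO replicate 3 and 101.3 CPM in KO replicate 4. All high libraries lay well below all low ones, at 102.8 ± 12.8 CPM (SD, n = 3) against 239.5 ± 37.9 CPM (SD, n = 4). The log2 fold change was −1.27 (SE 0.13, edgeR quasi-likelihood adjusted p = 1.78e-05). It was −1.29 among KO libraries and −1.23 among WT libraries, and with both genotypes together *Rraga* passed the test in each alternative fit but the one with the no-feature term, where it was at −0.96 (adjusted p = 0.131 by edgeR's quasi-likelihood test).

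*Slc35b2* and *Cebpe* followed. *Slc35b2* encodes the Golgi transporter of PAPS, the sulfate donor for glycosaminoglycans and other sulfated molecules. It stood at 93.9, 62.5, 79.0 and 72.5 CPM in WT replicates 1 and 3 and KO replicates 1 and 2, and at 211.5, 177.6 and 135.4 CPM in WT replicate 2 and KO replicates 3 and 4. The classes were clearly apart, with a log2 fold change of 1.20 (SE 0.15, edgeR quasi-likelihood adjusted p = 0.000618). *Cebpe*, a transcription factor of late granulocyte maturation, had 42.1, 29.3, 23.9 and 24.3 CPM in the low libraries in the same order and 71.9, 85.6 and 63.8 CPM in the high libraries. Its log2 fold change was 1.38 (SE 0.19, adjusted p = 0.00149 from the same test). *Cebpe* and *Rraga* were the pair that still passed without WT replicate 2, the library of highest *Rn45s* share.

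**Figure D3:**
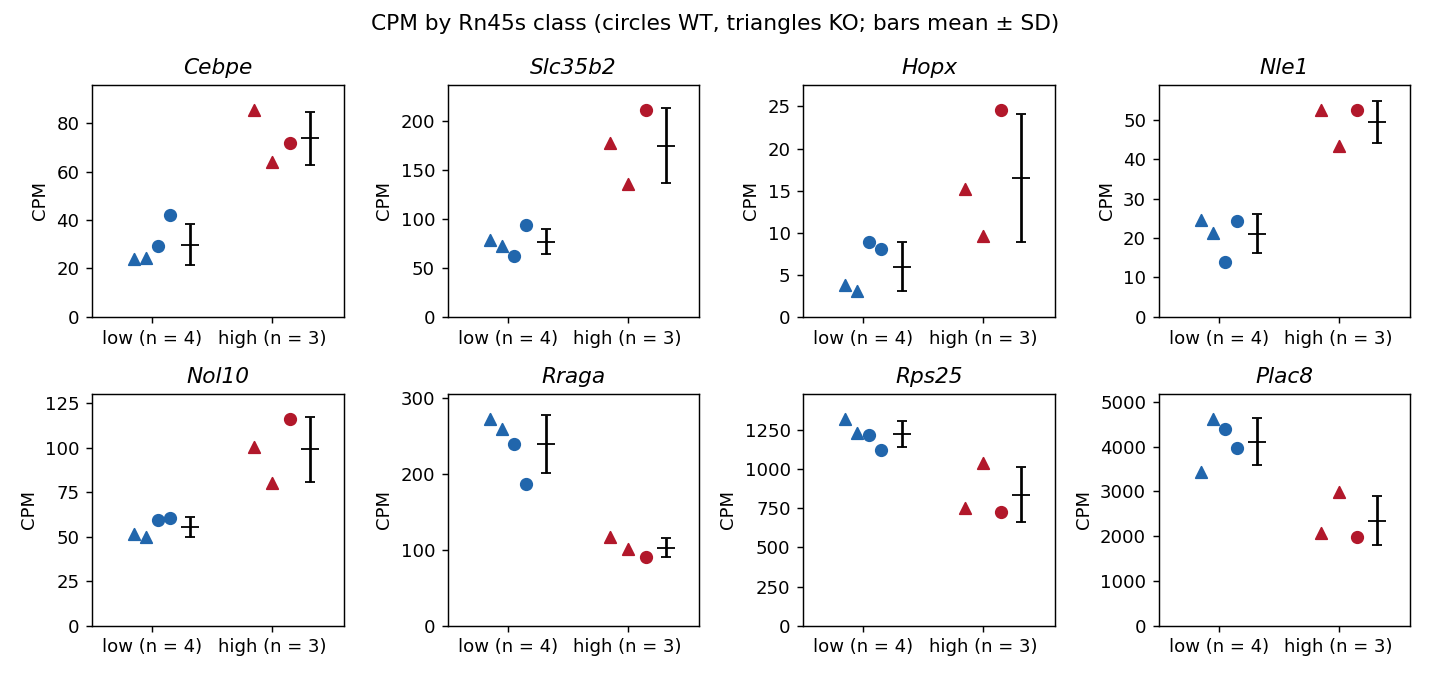
CPM of 8 genes in each library, low class (blue, n = 4) against high class (red, n = 3), with circles for WT, triangles for KO and bars for the mean ± SD; every vertical axis starts at 0. *Cebpe*, *Slc35b2*, *Hopx*, *Nle1* and *Nol10* lie wholly higher and *Rraga*, *Rps25* and *Plac8* wholly lower in the high class.

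The other genes of largest change had mixed roles. *Hopx*, a homeodomain protein without DNA binding that marks quiescent stem cells in several tissues, had the largest increase among those with a mean of at least 5 CPM. Its CPM were 8.06, 8.85, 3.79 and 3.10 in WT replicates 1 and 3 and KO replicates 1 and 2, and 24.6, 15.2 and 9.65 in WT replicate 2 and KO replicates 3 and 4. The high values did not overlap the low ones, but KO replicate 4 exceeded WT replicate 3 by less than 1 CPM (log2 fold change 1.71, SE 0.34, adjusted p = 0.0144 by edgeR's quasi-likelihood test). Also higher were *Mgll* (1.08), which releases fatty acids from monoacylglycerol, *St3gal4* (0.98), a sialyltransferase that builds selectin ligands, and *Pop7* (0.95), a subunit of RNase P and RNase MRP, the latter a cutter of the ribosomal RNA precursor. *Znhit1* (1.01), a subunit of the SRCAP chromatin remodeller, *Thap4* (1.02) and the predicted gene *Gm20544* (1.63) were higher too, as were *Nle1* and *Erg*, described below.

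Among the decreases, *Ermard* (−1.63) and *Cdk5rap1* (−1.34), a mitochondrial tRNA-modifying enzyme, were larger than *Rraga* in size but lower in level. *Cdk5rap1* fell from 37.8, 46.4, 37.0 and 18.8 CPM in WT replicates 1 and 3 and KO replicates 1 and 2 to 11.2, 10.3 and 17.6 CPM in WT replicate 2 and KO replicates 3 and 4. KO replicate 2 was close to KO replicate 4, with the classes otherwise well apart (SE 0.29, edgeR quasi-likelihood adjusted p = 0.0238). *Pde6d* (−1.15), a carrier of prenylated proteins to membranes, *Snx15* (−1.14), a sorting nexin of endosomes, and *Ulk3* (−0.97), a kinase related to the autophagy starter ULK1, also fell. The fatty acid carrier *Fabp5* (−0.93), *Unc119b* (−0.88), a carrier of acylated proteins, *Tmtc4* (−1.23), *Bphl* (−1.03), *Kctd14* (−1.002) and *1190007I07Rik* (−0.96) did too. All of these passed edgeR's quasi-likelihood test at adjusted p-values between 0.0109 and 0.0479, with no overlap between the classes. The rule that named them required that lack of overlap.

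For the machinery that makes ribosomes, the lists were read from the polymerase to the finished protein. None of the 29 tested members of the RNA polymerase I machinery passed the test, and their median log2 fold change was 0.01, against 0.00 over all genes tested. The members of smallest p-value went both ways: *Twistnb*, a polymerase I subunit, was at 0.39 (adjusted p = 0.133), *Nolc1*, a nucleolar chaperone, at −0.42 (adjusted p = 0.157), and *Cd3eap*, another polymerase I subunit, at −0.57 (adjusted p = 0.17), all in the quasi-likelihood test of edgeR. *Polr1a*, which encodes the largest subunit, ranged from 39.3 to 45.7 CPM in the low and from 41.5 to 52.2 CPM in the high libraries.

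Of 113 rRNA processing factors tested, 3 were higher, 2 lower and 108 did not pass, with a median of 0.00, where 0.955% of all genes tested were called higher and 0.92% lower. *Nol10*, a factor of the small subunit processome, had 60.4, 59.5, 51.5 and 49.6 CPM in WT replicates 1 and 3 and KO replicates 1 and 2, and 116.3, 100.6 and 80.0 CPM in WT replicate 2 and KO replicates 3 and 4. The classes did not overlap (log2 fold change 0.89, SE 0.15, edgeR quasi-likelihood adjusted p = 0.00574). *Nle1*, needed for the maturation of the large subunit and for haematopoietic stem cells in mice, had 24.4, 14.03, 24.5 and 21.2 CPM in the low libraries in the same order, and 52.4, 52.5 and 43.4 CPM in the high ones. The high libraries were well above the low ones, among which WT replicate 3 was lowest (log2 fold change 1.21, SE 0.21, adjusted p = 0.00813 from the same test). *Mrto4*, which holds the place of the ribosomal stalk during assembly, was the other gene higher (0.76, SE 0.14, adjusted p = 0.00998 in the quasi-likelihood test of edgeR). *Utp11* (−0.63), of the small subunit processome, and *Rrs1* (−0.56), which brings 5S RNA into the large subunit, were lower, with adjusted p-values of 0.04 and 0.0477 from that test. Without WT replicate 2 none of the list passed. Without KO replicate 2 there was 1 higher, and without WT replicate 3 or KO replicate 3 there were 2 higher. Without WT replicate 1 or KO replicate 1 there were 3 higher. None was lower in any of these fits. Without KO replicate 4 there were 6 higher and 3 lower. The summed level of the list was 9951 to 10519 CPM in the high and 9924 to 10340 CPM in the low libraries, and these ranges overlapped.

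The cytosolic ribosomal proteins held the largest number of members past the test among the lists that concern ribosomes. Of 80 tested, 10 were lower, none was higher and 70 did not pass, while 0.92% of all genes tested were called lower. Levels bear on this share: the list's median level was 1116 CPM, and of the 979 genes with a mean of at least 200 CPM, 4.29% were called lower. All 10 members called were among the 70 of the list at that level. *Rps25* (chromosome 9, 44407139 to 44410427) had 1122, 1215, 1323 and 1229.9 CPM in WT replicates 1 and 3 and KO replicates 1 and 2, and 723.0, 751.6 and 1036 CPM in WT replicate 2 and KO replicates 3 and 4. KO replicate 4 was the nearest to the low libraries and still below all of them (log2 fold change −0.58, SE 0.11, adjusted p = 0.0141 in the quasi-likelihood test of edgeR).

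*Rps16* (−0.52), *Rpl35* (−0.51), *Rpl10* (−0.60), *Rpl6* (−0.43), *Rpl5* (−0.42), *Rps7* (−0.41) and *Rpl39* (−0.42) were among the other members that were lower. *Rpl5*, with 5S RNA and another ribosomal protein, also forms the particle that holds back Mdm2 when ribosome assembly fails. In all 10 the classes did not overlap, and in 9 of the 10 KO replicate 4 was the high-class library nearest to the low class, *Rpl6* being the exception. The list did not move as a whole: its median was −0.02, 38 members were positive and 42 negative, and its summed level was 112967, 112315 and 110485 CPM in the high and 103648 to 113301 CPM in the low libraries. At an adjusted p-value under 0.25, 21 members were lower and 9 higher. The positive member of largest size, *Rpl13*, was at 0.44 (adjusted p = 0.0939 in the quasi-likelihood test of edgeR). Without any one of WT replicate 2, WT replicate 3, KO replicate 2 or KO replicate 3 none of the list passed. Without WT replicate 1 there were 2 lower and 1 higher, and without KO replicate 1 there were 5 lower. Without KO replicate 4 there were 19 lower and 6 higher. With log2 of the share in place of the classes none passed. Ribosomal protein genes have many near-identical processed copies, and how the counting split reads between them is uncertain.

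**Figure D4:**
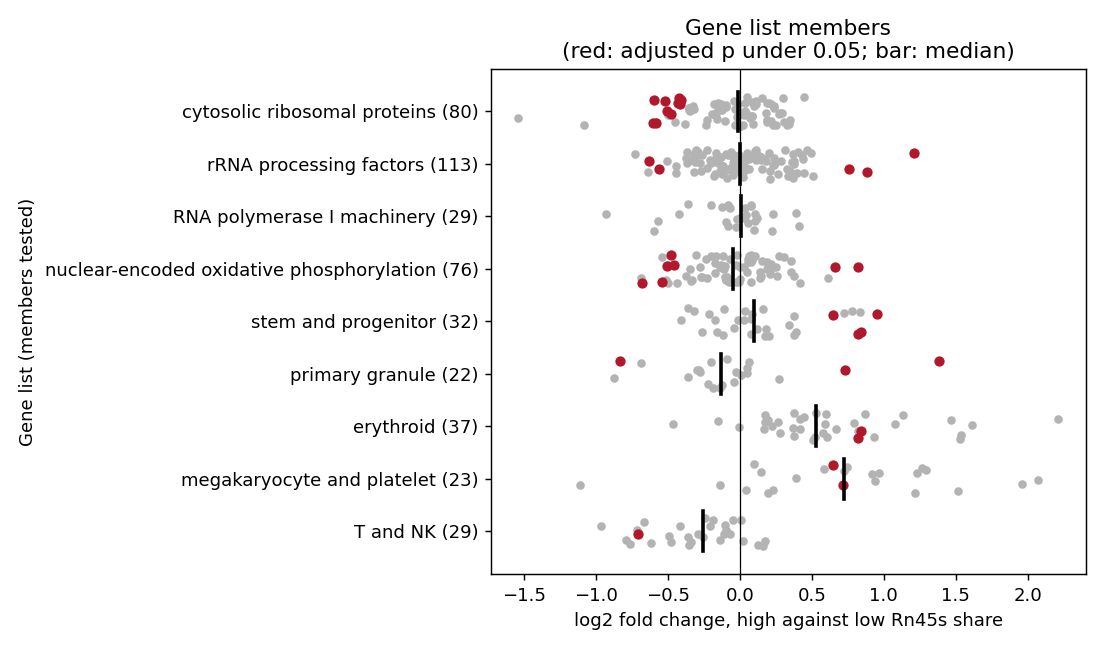
Log2 fold changes, high against low *Rn45s* share, of the tested members of 9 gene lists, with the number tested in parentheses; red points passed an adjusted p-value of 0.05 and black bars are medians. Ribosomal proteins have 10 red points, all below 0, with a median of −0.02, while the erythroid median is 0.53 with 2 red points.

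The promoters of *Rraga* and of the called ribosomal protein genes were read for CCGGAAG, the core bound by ETS factors such as GABPA, on both strands, in windows from 250 bases before to 50 after each RefSeq start (GRCm38.p6). Ribosomal protein genes are known for this motif and for a pyrimidine-rich start. Of the called ribosomal protein genes *Rps25*, *Rpl35* and *Rps7*, and also *Rraga*, hold the motif in the 150 bases before the start, and these stretches are shown 5′ to 3′ on the gene's strand with the motif or its reverse complement in capitals.
Rps25, chr9:44407564-44407713, plus strand: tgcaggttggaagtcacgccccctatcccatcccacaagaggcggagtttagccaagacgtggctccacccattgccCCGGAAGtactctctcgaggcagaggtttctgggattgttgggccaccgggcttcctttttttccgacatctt
Rpl35, chr2:39005132-39005281, minus strand: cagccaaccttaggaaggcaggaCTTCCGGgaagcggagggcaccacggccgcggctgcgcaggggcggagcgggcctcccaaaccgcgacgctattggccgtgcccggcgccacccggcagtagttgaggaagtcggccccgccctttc
Rps7, chr12:28635954-28636103, minus strand: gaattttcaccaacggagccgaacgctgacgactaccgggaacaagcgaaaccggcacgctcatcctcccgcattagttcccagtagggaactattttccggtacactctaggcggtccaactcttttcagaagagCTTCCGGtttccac
Rraga, chr4:86575523-86575672, plus strand: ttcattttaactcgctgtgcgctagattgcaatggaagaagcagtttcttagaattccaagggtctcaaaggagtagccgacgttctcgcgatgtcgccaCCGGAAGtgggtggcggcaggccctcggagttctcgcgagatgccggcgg

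Over the whole windows, 5 of the 8 called ribosomal protein genes with a RefSeq window held CCGGAAG, and 19 of the 51 not called did. Of all 32851 windows 8.86% held it, and of the 9273 genes tested that have a window 1953 (21.1%) did. Among genes called lower 24 of 80 with a window held it, and among genes called higher 19 of 84. Of the genes called higher, *Nol10* held it 80 bases before the start, and *Nle1*, *Mrto4* and *Slc35b2* did not hold it. Of the 96 rRNA processing factors with a window 41 (42.7%) held it. The motif was thus found among ribosomal protein genes, called or not, and on both sides of the comparison. A C followed by 7 pyrimidines, read on the gene's strand from 5 bases before to 10 after the start, was in 1 of the 8 called ribosomal protein genes, in 18 of the 51 not called and in 438 of the 9273. A match describes the letters in the window and not a site in use.

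Genes of the respiratory chain went both ways as well. Of 76 nuclear-encoded members tested, 2 were higher, 5 lower and 69 did not pass, with a median of −0.05, beside 0.955% and 0.92% of all genes tested. Of the 7 called, 6 were among the 36 members with a mean of at least 200 CPM, a level at which 7.66% of all genes were called in either direction. *Atp5o*, a subunit of the stalk of ATP synthase, had 590.8, 407.0, 529.8 and 492.4 CPM in WT replicates 1 and 3 and KO replicates 1 and 2 and 896.5, 1052 and 731.8 CPM in WT replicate 2 and KO replicates 3 and 4. All high values exceeded all low ones (log2 fold change 0.82, SE 0.14, edgeR quasi-likelihood adjusted p = 0.00998). *Ndufs6*, of complex I, was the other gene higher (0.66, SE 0.12, adjusted p = 0.00998 from that test). *Uqcrfs1* (−0.68), the Rieske protein of complex III, the complex IV subunits *Cox7b* (−0.54), *Cox8a* (−0.51) and *Cox6b1* (−0.46), and *Ndufa1* (−0.48) of complex I were lower. Their adjusted p-values ran from 0.0173 to 0.0384 by edgeR's quasi-likelihood test, and their classes did not overlap. The counts rested on single libraries, with none called without WT replicate 2 or KO replicate 2, 1 higher without WT replicate 3, 2 higher without KO replicate 3, 2 higher and 1 lower without WT replicate 1, and 5 higher and 13 lower without KO replicate 4.

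For cell types, shifts in how many cells of a type a library held cannot be told apart from shifts in RNA per cell in these bulk samples. Of 32 stem and progenitor genes tested, 4 were higher and none lower, with a median of 0.10, beside 0.955% of all genes tested called higher. *Erg*, an ETS factor required by haematopoietic stem cells, had 34.5, 22.3, 31.0 and 22.7 CPM in WT replicates 1 and 3 and KO replicates 1 and 2 and 69.3, 53.4 and 34.9 CPM in WT replicate 2 and KO replicates 3 and 4. KO replicate 4 and WT replicate 1 differed by less than 1 CPM, and the order of the classes still held (log2 fold change 0.95, SE 0.21, adjusted p = 0.0266 by edgeR's quasi-likelihood test). *Fli1* (0.65), its close relative, *Tal1* (0.84), a master factor of blood and of red cell formation, and *Zfpm1* (0.82), the partner FOG1 of GATA1, were the others. Their adjusted p-values were 0.0131, 0.0173 and 0.0477 from the same test, and *Zfpm1* overlapped between the classes. The lists share members: *Tal1* is counted again among the erythroid genes and *Fli1* among the megakaryocyte genes below. None of the 4 passed without WT replicate 2, KO replicate 2 or WT replicate 3, each left out alone, and 2 passed without KO replicate 3. With *Rn45s* kept in the library size the list's median was −0.07, against −0.17 for all genes. *Kit* and *Cd34* did not pass.

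Among 22 primary granule genes, 2 were higher and 1 lower, with a median of −0.13, beside 0.955% and 0.92% of all genes tested. *Ms4a3*, a marker of granulocyte and monocyte progenitors, was higher with *Cebpe* (0.73, SE 0.14, edgeR quasi-likelihood adjusted p = 0.0149). *Plac8*, a gene of myeloid progenitors and lymphocytes, fell from 3963, 4398, 3437 and 4628 CPM in WT replicates 1 and 3 and KO replicates 1 and 2 to 1983, 2080.2 and 2985 CPM in WT replicate 2 and KO replicates 3 and 4. Its classes did not overlap (log2 fold change −0.83, SE 0.15, adjusted p = 0.0217 from that test). *Mpo*, the myeloperoxidase of these granules, overlapped between the classes, with 5448 to 7818 CPM in the low and 6188 to 7441 CPM in the high libraries. None of the 24 late neutrophil genes or of the 28 monocyte and macrophage genes tested passed. Of the late neutrophil genes 19 were positive, where 5812 of all 11625 genes were. Their median was 0.31, with 0.55 within KO and 0.06 within WT libraries. Their summed level was 30587 CPM in KO replicate 3 and 10155 to 19770 CPM in the others.

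Most erythroid genes had higher values in the high class without passing one by one. Of 37 tested, 34 had a positive log2 fold change, as did 5812 of all 11625 genes, and 2 passed, *Tal1* and *Car2*, an early erythroid carbonic anhydrase (0.82, SE 0.18, edgeR quasi-likelihood adjusted p = 0.0311), with a list median of 0.53, beside 0.955% of all genes called higher. Neither passed without WT replicate 2, KO replicate 2 or WT replicate 3, and 1 member passed without KO replicate 3. Without KO replicate 4 the median was 0.29, with 4 members higher. Their summed level was 2521, 1817 and 2514 CPM in WT replicate 2 and KO replicates 3 and 4, and 1655, 2067, 1490 and 1711 CPM in WT replicates 1 and 3 and KO replicates 1 and 2. These sums overlapped, WT replicate 3 lying above KO replicate 3. The defining gene *Klf1* (2.90 to 11.9 CPM in the low and 7.72 to 23.6 CPM in the high libraries) overlapped too, and its part in the result was not tested. Members of one cell type move together, so that 34 is not a count of independent genes.

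Of 23 megakaryocyte and platelet genes tested 2 were higher, beside 0.955% of all genes called higher. They were *Fli1*, and *Serpine2* at 0.72 (adjusted p = 0.0392 in the quasi-likelihood test of edgeR). The list had a median of 0.72. This median rested on KO replicate 4, where the list summed to 2135 CPM against 719.8 to 1283 CPM in the other 6 libraries, and it was −0.01 without that library, with 2 members higher and 1 lower. Within KO libraries the median was 1.31 and within WT libraries −0.22. None of the list passed without WT replicate 2, KO replicate 2 or WT replicate 3, and 1 did without KO replicate 3. *Serpine2* differed by 1.06 in the KO libraries alone and by 0.18 in the WT libraries. *Ppbp*, a platelet chemokine, was at 99.9 CPM in KO replicate 4 and at 2.44 to 15.1 CPM elsewhere. Of 29 T and NK genes, 24 were negative with a median of −0.26, while 5813 of all 11625 genes were negative. The list's median was −0.55 within KO and 0.00 within WT libraries, −0.55 again without WT replicate 2, and −0.01 with the no-feature reads as a further term. *Ccl5*, a chemokine of cytotoxic lymphocytes, was the 1 member that passed, beside 0.92% of all genes called lower. *Ccl5* had 296.7, 287.7, 260.5 and 375.5 CPM in WT replicates 1 and 3 and KO replicates 1 and 2, and 232.0, 176.7 and 149.8 CPM in WT replicate 2 and KO replicates 3 and 4. WT replicate 2 was the nearest to the low class (log2 fold change −0.70, SE 0.15, adjusted p = 0.0223 by edgeR's quasi-likelihood test). *Ccl5* did not pass without WT replicate 2, KO replicate 2, KO replicate 3 or WT replicate 3. The difference was −0.96 within KO and −0.33 within WT libraries, and these did not differ past the threshold (adjusted p = 0.999934 in the quasi-likelihood test of edgeR, or 0.027 unadjusted). None of the 25 B lineage, 19 eosinophil, basophil and mast cell, 24 dendritic or 22 stromal and endothelial genes passed. Of the stromal and endothelial genes 18 were positive, where 5812 of all 11625 genes were, with a median of 0.30. Their summed level was 2516 CPM in KO replicate 4 and 1129 to 1466 CPM in the others.

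Among cell cycle and stress genes the members called were few, and 1.88% of all genes tested were called. Of 52 S phase genes, *Rpa1* (0.50), which coats single-stranded DNA, and *Cdt1* (0.44), which loads the replicative helicase, were higher, with adjusted p-values of 0.0395 and 0.0461 in the quasi-likelihood test of edgeR. Of 54 G2 and M phase genes, the centromere genes *Cenpe* (0.72) and *Cenpa* (0.48) were higher and *Cdk1* (−0.42), the mitotic kinase, was lower, at 0.0131, 0.0264 and 0.0477. The chaperonin subunit *Cct5* (0.65) and the cochaperone *Dnaja2* (0.49) were higher among 46 chaperones, at 0.0131 and 0.0435. No member passed among 25 p53 target, 48 immediate-early or 50 interferon-stimulated genes, and 34 of the 48 immediate-early genes were positive, where 5812 of all 11625 genes were. Their median was 0.13 over all libraries, 0.30 within KO and −0.12 within WT libraries.

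Other RNAs that, like the 45S precursor, stay in the nucleus or lack a poly(A) tail were read as lists of their own. None of the 12 nuclear noncoding RNAs tested passed. *Malat1* had 1592 to 2622 CPM in the low and 1455 to 2532 CPM in the high libraries, a log2 fold change of −0.03, and *Neat1* was at −0.07. Of 54 replication-dependent histone genes, whose messengers end in a stem-loop and not in a poly(A) tail, none passed. Of these 43 were positive, where 5812 of all 11625 genes were, and the median was 0.31, or 0.14 without KO replicate 4. Their summed level was 653.4, 653.4 and 911.2 CPM in WT replicate 2 and KO replicates 3 and 4 and 537.2 to 666.0 CPM in the low class, so that KO replicate 4 alone was high. None of 7 small RNAs of RNA polymerase III and related classes passed. Of 18 hosts of small nucleolar RNAs 1 was lower, beside 0.92% of all genes called lower. It was *Snhg3* (−0.62, SE 0.14, edgeR quasi-likelihood adjusted p = 0.0222). The GC content of the last 300 bases had a median of 43.2% for genes higher, 41.0% for genes lower and 42.0% for all genes tested.

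Within genotype the counts were small. In a fit with a mean for each genotype and class, where the spread of the lone WT library of high share is taken to be like that of the others, 2 of 12264 genes passed among KO libraries (0.0163%), *Cebpe* at 1.63 and *Rraga* at −1.29. The WT contrast sets WT replicate 2 alone against WT replicates 1 and 3, so it has no replicate check of that library. There 3 genes met the threshold (0.0245%), *Rraga* at −1.23, *Slc35b2* at 1.43 and *Mbnl1* at 0.89. The difference between the genotypes' class effects passed in no gene by edgeR's quasi-likelihood test, with 449 genes at an unadjusted p-value under 0.05, and in 1 gene by the likelihood ratio test. All 218 genes called over the 7 libraries had the same sign in both genotypes, though these contrasts use the same libraries as the call.

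The KO and WT libraries share no sample, so the KO difference can be set beside that of the WT libraries. In a fit of the 4 KO libraries alone 2 genes passed (0.0177%), again *Cebpe* and *Rraga*, and in the WT libraries *Cebpe* differed by 1.03 and *Rraga* by −1.21 on the log2 scale, with replicate 2 beyond both other replicates each time. Of the 415 genes (3.68%) higher in the KO libraries of high share at an unadjusted p-value under 0.05, 352 (84.8%) were higher in WT replicate 2 than in the mean of WT replicates 1 and 3. Of the 452 genes lower (4%), 451 were measured on both sides and 373 of these (82.7%) were lower there. Without KO replicate 3, when KO replicate 4 is the lone KO library of high share, these were 230 of 305 (75.4%) and 225 of 305 (73.8%). Whatever their p-value, 62.7% of the 5685 genes with a positive KO difference were higher in WT replicate 2. Of the 5572 genes with a negative KO difference, 62.5% were lower there. Over all 11257 genes measured on both sides, 50.2% were higher and 49.8% lower in WT replicate 2. Across these genes the KO and WT differences correlated with r = 0.237 and rho = 0.299, a description across genes, which are not independent replicates and share depth and annotation. Only 1 WT library is of the high class, so the WT side is a difference of that library from the others. With KO replicate 3 left out, 32 genes passed over all libraries, 27 of them among the 218.

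**Figure D5:**
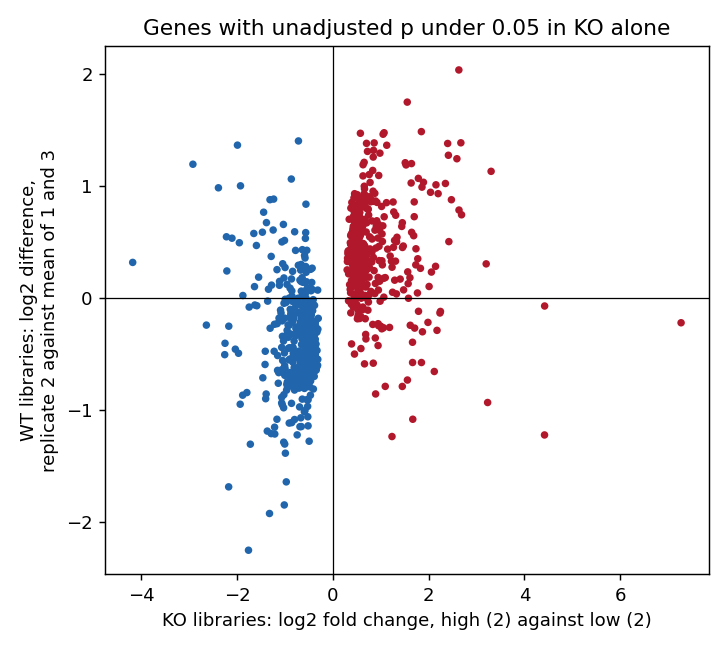
Genes with an unadjusted p-value under 0.05 in the KO libraries alone: the KO log2 fold change of high against low share (horizontal) against the log2 difference of WT replicate 2 from the mean of WT replicates 1 and 3 (vertical). Of 415 genes on the right 352 lie above 0, and of 451 on the left 373 lie below 0.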

How the data were processed

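The authors made 3′ end libraries, sequenced them as 75 bp reads, aligned them to GRCm38 with STAR and deposited raw counts of reads per gene symbol for each of 3 WT and 4 KO mice. The submitters' processing notes also name FastQC and DESeq2. The methods credit counting to STAR on Ensembl genes, while the deposited files carry 5 tally rows of another counting format. The counting step and its strand setting are therefore uncertain, overlapping and antisense genes with them. Tally rows stayed out of library sizes; reads on no gene were 27.0% to 31.6% of the reads counted. The mitochondrially encoded genes of the list written for them were not analysed here.

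High and low classes were set by the *Rn45s* share, and *Rn45s* was removed. Then edgeR 4.0.16 (R 4.3.3) gave TMM factors, filterByExpr and a robust quasi-likelihood fit with genotype and class. The fit was also run on counts simulated gene by gene, which hold no trend that many genes share. In the deposited data the biological coefficient of variation was 19.3%. A standard error is the log2 fold change divided by the root of F. P-values were adjusted by Benjamini-Hochberg over all genes tested. Single values had two-sided exact permutation tests. The members of both classes and the gene lists were chosen with earlier results of these data known, so a list's count is no independent evidence. The genes named are *Rn45s*, *Hdgfl2*, the 12 largest changes each way (adjusted p under 0.05, mean of at least 5 CPM, no overlap) and 3 members of smallest p-value per list; a few genes that meet the rule are not reported here. Other members past the test, and *Slc3a2* and *Mbnl1*, were named after their values were seen. There were 26 lists. WT differences used log2 CPM with a prior count of 2. Coordinates are GENCODE M21; promoters are RefSeq. Alternatives were DESeq2 1.42.0, limma-voom (limma 3.58.1), the likelihood ratio test, other scaling, filters, terms and thresholds, thinning, and leaving out each library; the correlations and the KO comparison without KO replicate 3, and the no-feature correlation over all reads counted, were added after seeing the data.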

Additional observations from a re-analysis of the deposited data

Results flagged for a closer look

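Of 196 checks of named genes and library measures within the 4 KO libraries and within the 4 libraries of low share, 8 had 1 library far from the other 3 by Dixon's test, where chance gives about 9.8 at 1 in 20. Among KO libraries, *Kcnq1ot1*, a nuclear antisense RNA, was at 210 CPM in KO replicate 3 against 124.8 to 129.7 CPM in the others, and *Vim* was low there, at 533.3 CPM against 633.6 to 638.4 CPM. KO replicate 4 was high in *Clec1b* (9.08 CPM), a platelet receptor, and in *Dcn* (6.24 CPM), a gene of stromal cells. *Mzb1*, of B cells and plasma cells, was low in KO replicate 1, at 125.1 CPM. Among libraries of low share, *Thap4* was at 30.5 CPM in WT replicate 1, above the others. *Hist1h1b* (20.1 CPM) was high and *Clec1b* (0.892 CPM) low in KO replicate 1 among the same 4. Of these *Thap4* passed the test between the classes, and its outlying library lies outside the range of the high class.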

How the results depend on the processing

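The count of 218 genes was within 1.5 times of itself with limma-voom, the likelihood ratio test, DESeq2's size factors, library sizes without factors, a minimum of 10 reads and thinning. It was 377 with DESeq2, 504 without a filter, 143 without the genotype term, 1356 at an adjusted p-value under 0.25 and 723 with *Rn45s* in the library size. With log2 of the share in place of the classes it was 3 (*Car2*, *Pdzk1ip1* and *Rraga*). Leaving out 1 library gave 2 to 554 genes. Of the alternatives chosen after seeing the data, leaving out the library nearest the limit on each side gave 30 genes and the no-feature term gave 1. A replicate block gave 494 genes, but samples with the same number did not deviate together (correlations −0.02, −0.19 and −0.14), so the numbers pair nothing; it could not be fitted within genotype. Within KO libraries the count of 2 became 10 with the likelihood ratio test, 6 without factors, 7 with *Rn45s* in the library size, 87 without a filter and 2 to 67 with 1 library left out. Within WT libraries the count of 3 became 16, 37 and 163 with the likelihood ratio test, *Rn45s* in the library size and no filter, and 0 to 36 with 1 library left out. For the difference between genotypes these were 1 with the likelihood ratio test, 4 without a filter and 0 to 2 with 1 library left out. No gene named by rule that passed the test changed direction. The differences in reads on genes other than *Rn45s* (−645198 to 228645) and in reads on more than 1 gene (−0.04 to 0.10 per 100), which did not pass the test, changed sign with 1 library left out. The median of megakaryocyte genes, 0.72, was −0.05 with the block and −0.54 with the no-feature term, that of erythroid genes, 0.53, was 0.05 and 0.29, and that of T and NK genes, −0.26, was −0.13 and −0.01. The cause of these shifts was not tested. Genes near the floor of 3 reads could not be judged at this depth.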

Other observations

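A few further genes that passed edgeR's quasi-likelihood test belong to no list. They were picked after their values were seen and stand for no group. *Rack1*, a protein of the small ribosomal subunit that serves as a scaffold for signalling, had 3686, 3012, 3535 and 3219.6 CPM in WT replicates 1 and 3 and KO replicates 1 and 2 and 5342, 4999 and 4192 CPM in WT replicate 2 and KO replicates 3 and 4 (log2 fold change 0.54, adjusted p = 0.0131). *Eef1a1*, the elongation factor that brings tRNA to the ribosome, was lower (−0.48, adjusted p = 0.0208 from that test). *Il2rg*, the shared receptor chain of several interleukins, had 117.9, 116.8, 132.9 and 87.8 CPM in the low libraries in the same order and 71.2, 61.3 and 73.2 CPM in the high ones (log2 fold change −0.72, adjusted p = 0.0203). In these genes the classes did not overlap.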
